A study of Mus musculus with 18 samples.

Results

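The autophagy machinery was followed through 40 genes that code for its core proteins. They were chosen by symbol and sorted by the step they serve: 5 for initiation, 6 for nucleation, 20 for conjugation, 4 cargo receptors and 5 for fusion with the lysosome. All 40 were found among the 36047 genes with a listed transcript, and all 40 passed the filter on low counts in every comparison. The 18 RNA libraries came from 2 mouse lung cancer lines and made 6 groups of 3. LLC (Lewis lung carcinoma) is labelled a lung adenocarcinoma of strain C57BL/6, and UN-SCC679 a lung squamous carcinoma of strain A/J. LLC with the construct sh3 in the vector TPLKO was set against LLC with empty TPLKO. UN-SCC679 with sh3 in TPLKO was set against UN-SCC679 with empty TPLKO. All 4 of these groups received doxycycline and carry the phenotype label DSTYK downregulation, the empty vectors included. UN-SCC679 overexpressing wild-type DSTYK from pLENTI6 (OE) was set against UN-SCC679 with empty pLENTI6; both are labelled DSTYK overexpression, with no treatment listed. The groups were therefore taken from the sample titles. DSTYK is a dual serine/threonine and tyrosine kinase, and the question was how these cells' transcripts respond when it is lowered or raised. The only construct that lowered it was sh3, with the empty vector as its control. Effects of lower DSTYK and other effects of sh3 can therefore not be told apart. The same holds for higher DSTYK and other effects of the OE construct. Whether a population was a single clone, or replicates were separate cultures, is not stated, so p-values rest on the spread among libraries, which could be technical. These were bulk samples, so fewer cells of a kind and less RNA per cell cannot be told apart.

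Autophagy encloses cytoplasm in a double membrane, the autophagosome, and delivers it to lysosomes for breakdown. The ULK1 kinase complex starts the process, a lipid kinase complex around Beclin 1 marks the membrane with phosphatidylinositol 3-phosphate (PI3P), and a ubiquitin-like system attaches ATG8 proteins (the LC3 and GABARAP families) to lipid. Receptors tie cargo to ATG8 proteins, and SNARE proteins fuse the closed autophagosome with the lysosome. Much of this control acts on proteins, so transcript levels say how much RNA of each part was present and nothing of the flux through the pathway.

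Libraries held between 40525385 and 46528071 estimated counts. Levels of a gene are given in CPM, counts scaled to a common library total. Dstyk had 22.7, 24.0 and 22.5 CPM in LLC sh3 libraries, against 42.8, 40.6 and 44.8 CPM in LLC empty libraries (log2 fold change -0.89, SE 0.044, edgeR adjusted p = 9.81e-10). It had 26.6, 26.7 and 25.1 CPM in UN-SCC679 sh3 libraries, against 36.4, 36.3 and 38.0 CPM in empty TPLKO libraries (log2 fold change -0.49, SE 0.04, edgeR adjusted p = 5.61e-07). With overexpression Dstyk had 37.2, 37.4 and 38.6 CPM in OE libraries, against 29.6, 31.0 and 32.3 CPM in empty pLENTI6 libraries (log2 fold change 0.28, SE 0.04, edgeR adjusted p = 0.000641). The altered and empty groups did not overlap in any of them, and Dstyk was 1.22-fold higher in OE libraries. Of 5 leukocyte and 4 endothelial markers, none reached 1 TPM (a level per transcript length, scaled to a common total) in any group. LLC lacked the squamous and the alveolar and club cell markers: 0 of 5 and 0 of 4 reached 1 TPM in either LLC group, and of 6 epithelial markers 1 did (Krt18). Of the 4 alveolar and club cell markers, 1 reached 1 TPM in UN-SCC679. This was Nkx2-1, with means between 28.1 and 42.1 TPM in the 4 groups of that line. In UN-SCC679 the squamous markers Krt5 and Dsg3 were at or near 0 in all 4 groups, Sox2 lay between 28.2 and 69.3 TPM, and mean Trp63 and Krt14 were 5.98 and 16.3 TPM with sh3, against 0.907 and 3.41 TPM with empty TPLKO. The 5 squamous markers summed to 49.0 to 52.4 TPM in sh3 libraries, against 31.8 to 37.3 TPM in empty TPLKO libraries, and to 64.1 to 66.05 TPM in OE libraries, against 68.0 to 73.6 TPM in empty pLENTI6 libraries. The lower sum with OE was that of Sox2, with a mean of 61.1 against 69.3 TPM. Mean Trp63 and Krt14 were higher with OE, at 2.81 and 1.22 TPM against 1.27 and 0.779 TPM. Summed epithelial markers lay between 340 and 357 TPM in UN-SCC679 sh3 libraries, against 542 to 567 TPM in empty TPLKO libraries, with 3 of 6 at or above 1 TPM in both. The lower sum was that of Krt8 and Krt18, with means of 247 and 99.6 TPM with sh3, against 383 and 174 TPM. Mean Krt7 and Cdh1 were higher with sh3, at 2.56 and 0.195 TPM against 1.44 and 0.00779 TPM. Summed fibroblast markers lay between 3118 and 3176 TPM with sh3, against 3884 to 3994 TPM in empty TPLKO libraries, with 4 of 6 at or above 1 TPM. The lower sum was that of Col1a2 (mean 2730 TPM with sh3, against 3710 TPM), while the means of the other 5 were higher with sh3, such as Col1a1 at 310 against 151 TPM. In LLC the fibroblast sum was 28.4 to 29.3 TPM with sh3, against 19.0 to 20.6 TPM with the empty vector. There the means of Pdgfra, Col1a2, Dcn and Thy1 were higher with sh3, such as Dcn at 15.9 against 10.3 TPM. Those of Pdgfrb and Col1a1 were lower, at 1.11 and 1.15 TPM against 2.77 and 1.47 TPM. In OE libraries the epithelial sum was 817 to 858 TPM, against 1002 to 1040 TPM with empty pLENTI6. The part of these markers in the results on autophagy genes was not tested. The first empty pLENTI6 library stood apart from its group, with a mean chi-square per gene of 12.2 and 13.8 against its fellows, where no other pair within a group passed 5.05.

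In LLC, 18 of the 40 autophagy genes rose with sh3, 11 fell and 11 did not pass the test (edgeR quasi-likelihood test, adjusted p under 0.05 over 13767 genes). Across all tested genes 36.2% rose and 36.4% fell, 72.6% in all, so the share of called members was near the background. Changes were small: the median size of the log2 fold change was 0.19 over the members and 0.35 over all tested genes. At least 2-fold changes were seen in 2 members, both called, where 12.2% of all genes were called and changed that far. The sh3 and empty libraries did not overlap for 29 members, beside 76.0% of all genes, again near the background. The median log2 fold change of the members was 0.08, and that of all tested genes 0.01. The 5 largest changes were all rises: the ATG8 gene Gabarapl1, the receptor gene Calcoco1, the receptor gene Optn, the PI3P effector gene Wipi1 and the LC3 gene Map1lc3a. Their fold sizes were 2.49-fold, 2.12-fold, 1.998-fold, 1.90-fold and 1.68-fold in that order. The counts of members by step were 3 higher and 0 lower of 5 for initiation, 1 and 4 of 6 for nucleation, 8 and 6 of 20 for conjugation, 4 and 0 of 4 for receptors, and 2 and 1 of 5 for fusion. On log2(TPM + 1) with limma, 7 members fell in place of 11.

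In UN-SCC679, 12 of the 40 genes rose with sh3, 15 fell and 13 did not pass the test, where 31.8% of 14271 tested genes rose and 32.0% fell (63.8% in all). Calcoco1 alone changed at least 2-fold and was called, beside 10.3% of all genes that were called and changed that far. The median log2 fold change was 0.01 over the members and 0.01 over all genes, and the median size was 0.13 and 0.26. Libraries of the groups did not overlap for 29 members, beside 68.2% of all genes. By step, 2 rose and 2 fell in initiation, 1 and 2 in nucleation, 5 and 7 in conjugation, 3 and 1 among receptors, and 1 and 3 in fusion. With scaling by library size alone 9 members fell in place of 15, and with limma on log2(TPM + 1) 6 rose in place of 12.

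Between OE and empty pLENTI6 libraries of UN-SCC679 fewer of them were called: 8 rose, 3 fell and 29 did not pass the test. Across the 13975 tested genes 14.6% rose and 15.2% fell (29.7% in all). No member changed 2-fold, where 2.54% of all genes were called and did. The groups did not overlap for 20 members, beside 46.0% of all genes. The members' median log2 fold change was 0.02, and that of all genes 0.00. Nucleation genes (0 of 6) and ATG8 genes (0 of 5) gave no call. These counts depend on single libraries. Without the first empty pLENTI6 library, the one that stood apart, 11 members rose and 6 fell, where 17.1% of all genes rose and 17.6% fell. Without the second or the third empty library 4 and 5 members rose, where 11.5% and 13.4% of all genes did. Without OE library 1, 2 or 3 it was 4, 2 and 3 members, where 10.1%, 10.1% and 10.5% of all genes rose. With DESeq2 3 rose, and with limma on log2(TPM + 1) 1 fell.

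**Figure D1:**
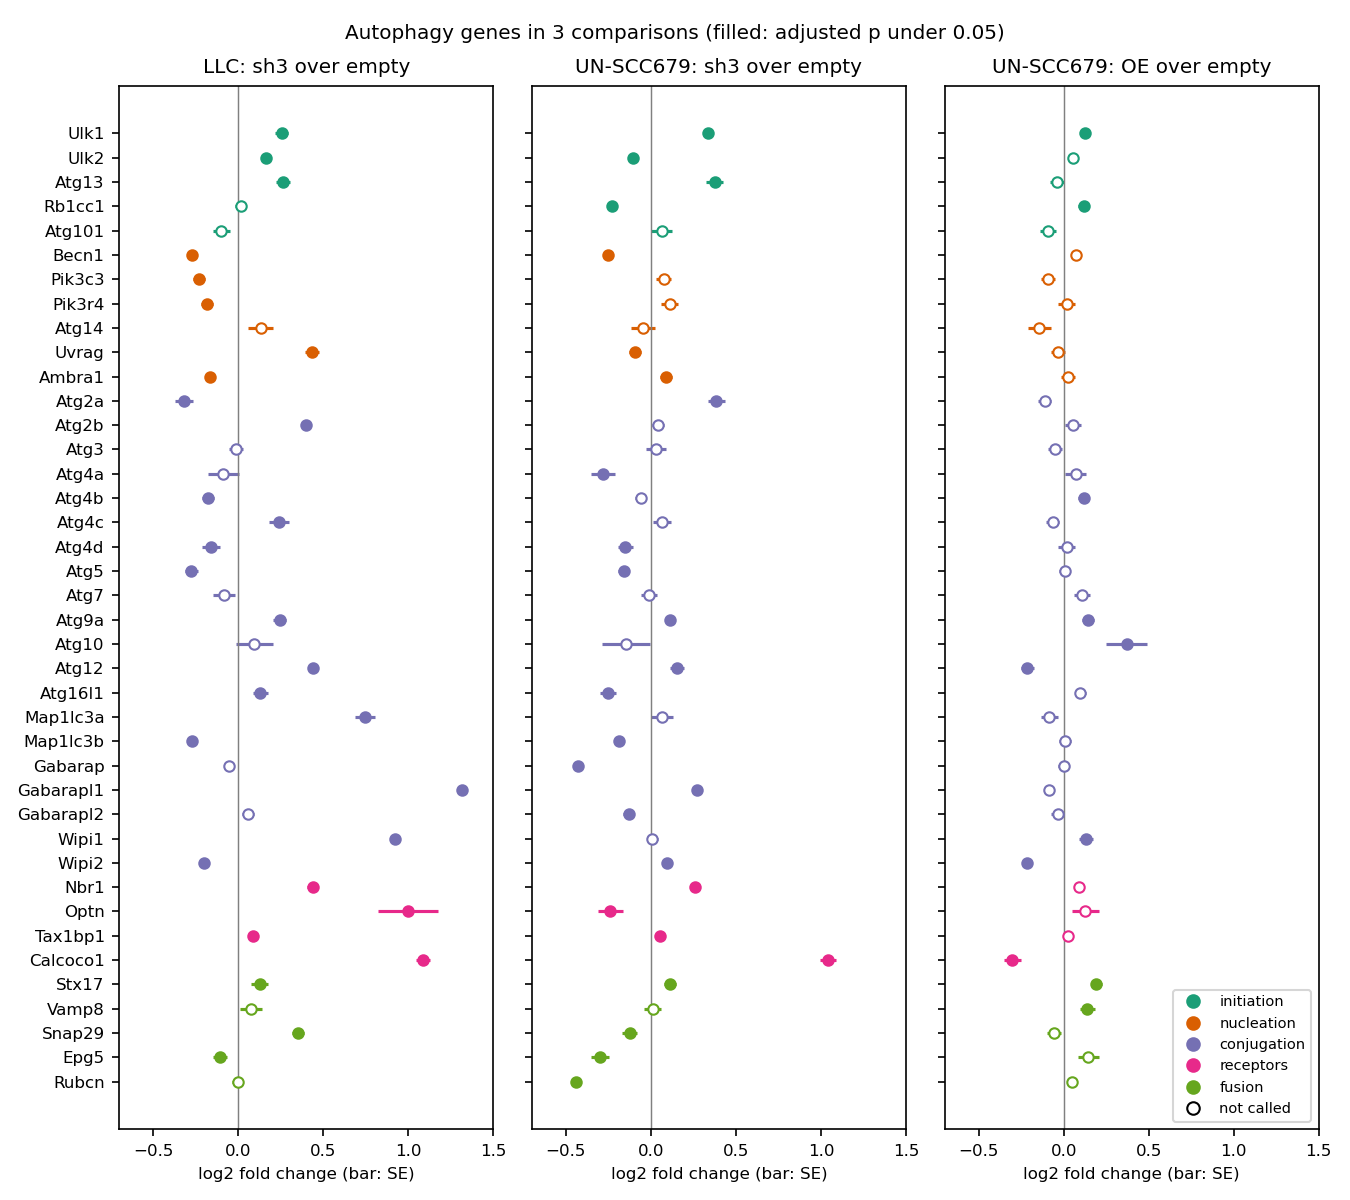
Log2 fold change with its standard error (horizontal axis) for each of the 40 autophagy genes (rows, by step) in LLC sh3 over empty, UN-SCC679 sh3 over empty and UN-SCC679 OE over empty. Filled points passed the test; most lie within 0.5 of 0, and Gabarapl1 and Calcoco1 in LLC and Calcoco1 in UN-SCC679 lie beyond 1.

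The initiation complex pairs the kinases Ulk1 and Ulk2 with Atg13, the scaffold Rb1cc1 (FIP200) and Atg101. Ulk1 rose in all 3 comparisons. It had 37.8, 37.2 and 38.2 CPM in LLC sh3 libraries, against 33.1, 31.2 and 30.4 CPM in LLC empty libraries (log2 fold change 0.26, SE 0.038, edgeR adjusted p = 4.71e-05). Ulk1 had 91.7, 89.8 and 86.5 CPM in UN-SCC679 sh3 libraries, against 72.4, 70.9 and 69.1 CPM in empty TPLKO libraries (log2 fold change 0.34, SE 0.031, edgeR adjusted p = 1.55e-06). With overexpression it had 71.7, 72.5 and 69.3 CPM in OE libraries, against 65.5, 65.0 and 65.5 CPM in empty pLENTI6 libraries (log2 fold change 0.12, SE 0.028, edgeR adjusted p = 0.00903). In each comparison all altered libraries lay above all empty ones. The LLC call was lost with limma on log2(TPM + 1) and the OE call without the second OE library; over 13 alternatives the adjusted p ran from 8.66e-09 to 0.195 in LLC and from 0.00357 to 0.051 for OE.

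Atg13, which links ULK1 to Rb1cc1, rose with sh3 in both lines. It had 28.8, 31.7 and 30.3 CPM in UN-SCC679 sh3 libraries, against 22.8, 24.5 and 22.6 CPM in empty TPLKO libraries (log2 fold change 0.38, SE 0.05, edgeR adjusted p = 3.99e-05), again without overlap. In LLC the means were 57.7 ± 0.543 CPM in LLC sh3 libraries and 48.1 ± 3.04 CPM in LLC empty libraries (SD, n = 3 each), a log2 fold change of 0.26. Ulk2, the close relative of Ulk1, rose in LLC (0.16) and fell in UN-SCC679 (-0.11). Rb1cc1 fell in UN-SCC679 (log2 fold change -0.23), rose with OE (0.12) and had a value of 0.01 in LLC without a call. Atg101 was not called in any of the 3, with log2 fold changes of -0.10, 0.06 and -0.09.

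Nucleation was the one step in LLC with more members lower than higher (4 and 1 of 6), where 36.4% of all genes fell and 36.2% rose. Becn1 codes for Beclin 1, the platform of the lipid kinase complex, and fell with sh3 in both lines. Its place is chromosome 11, minus strand, 101285952 to 101302286 (GRCm38). Becn1 had 112, 113 and 112 CPM in LLC sh3 libraries, against 136, 136 and 136 CPM in LLC empty libraries (log2 fold change -0.27, SE 0.019, edgeR adjusted p = 3.32e-08). It had 77.1, 76.6 and 78.2 CPM in UN-SCC679 sh3 libraries, against 94.1, 89.1 and 93.2 CPM in empty TPLKO libraries (log2 fold change -0.25, SE 0.028, edgeR adjusted p = 9.03e-06). The libraries of the groups did not overlap in either line, and on log2(TPM + 1) the LLC change was -0.45. Under OE the means were 95.4 ± 1.08 CPM in OE libraries and 90.7 ± 1.61 CPM in empty pLENTI6 libraries (SD, n = 3 each; log2 fold change 0.07, SE 0.027, edgeR adjusted p = 0.0665), which passed the test with scaling by library size alone and without the first empty library (adjusted p between 0.0335 and 0.465 over 13 alternatives).

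The catalytic subunit gene Pik3c3 (VPS34) and its regulatory partner gene Pik3r4 (VPS15) fell in LLC, with log2 fold changes of -0.23 and -0.18. In UN-SCC679 sh3 their values were 0.07 and 0.11, without a call. Pik3c3, Atg12 and Epg5 lie on chromosome 18. That chromosome's tested genes had median log2 fold changes of -0.172 in LLC, -0.029 in UN-SCC679 sh3 and -0.098 with OE. The part of the chromosome in the changes of these members was not tested. Ambra1, a positive regulator of the complex, fell in LLC (-0.17) and rose in UN-SCC679 (0.09). Atg14, the subunit that directs the complex to the forming autophagosome, gave no call in the 3 comparisons (0.13, -0.05 and -0.14). Uvrag, which takes the place of ATG14 in the complex that acts on endosomes and later steps, had 65.8, 68.0 and 70.8 CPM in LLC sh3 libraries, against 47.8, 53.4 and 50.6 CPM in LLC empty libraries (log2 fold change 0.43, SE 0.041, edgeR adjusted p = 6.38e-07). Uvrag had 40.7, 43.0 and 41.4 CPM in UN-SCC679 sh3 libraries, against 44.0, 43.8 and 45.6 CPM in empty TPLKO libraries (log2 fold change -0.09, SE 0.035, edgeR adjusted p = 0.0348). Counts of Uvrag thus rose in LLC and fell in UN-SCC679. Summed over its transcripts, its level per transcript length in LLC was 33.9 ± 2.35 TPM with sh3 and 35.0 ± 1.75 TPM with the empty vector (SD, n = 3 each), which overlap. A coding transcript, Uvrag-201, was higher there with sh3, as given below.

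Membrane supply and reading of PI3P rest on the scramblase ATG9A, the lipid transfer proteins ATG2A and ATG2B, and the PI3P-binding proteins WIPI1 and WIPI2. Wipi1 rose in LLC more than any other gene of this group. It had 84.4, 87.3 and 86.1 CPM in LLC sh3 libraries, against 45.2, 45.3 and 45.3 CPM in LLC empty libraries (log2 fold change 0.92, SE 0.027, edgeR adjusted p = 9.3e-12). It had 45.1, 46.6 and 46.9 CPM in UN-SCC679 sh3 libraries, against 45.2, 46.7 and 45.8 CPM in empty TPLKO libraries (log2 fold change 0.01, SE 0.032, edgeR adjusted p = 0.824). The sh3 libraries of LLC lay far above their controls, while those of UN-SCC679 overlapped theirs. With OE Wipi1 rose by a log2 fold change of 0.13.

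Wipi2, which recruits the lipidation enzymes, fell in LLC (log2 fold change -0.20), rose slightly in UN-SCC679 sh3 (0.09) and fell with OE. In the last it had 81.8, 81.4 and 78.7 CPM in OE libraries, against 91.7, 94.5 and 94.5 CPM in empty pLENTI6 libraries (log2 fold change -0.21, SE 0.028, edgeR adjusted p = 0.000465), with every OE library below every empty one. That call was lost with limma on log2(TPM + 1) (adjusted p 3.94e-06 to 0.0986 over 13 alternatives). Atg2a had 18.8, 19.0 and 17.2 CPM in LLC sh3 libraries, against 22.1, 23.3 and 23.3 CPM in LLC empty libraries (log2 fold change -0.32, SE 0.051, edgeR adjusted p = 9e-05). Atg2a had 27.3, 26.3 and 25.2 CPM in UN-SCC679 sh3 libraries, against 19.6, 20.1 and 20.8 CPM in empty TPLKO libraries (log2 fold change 0.39, SE 0.048, edgeR adjusted p = 2.15e-05). So Atg2a fell in LLC and rose in UN-SCC679, without overlap in either. It lies on chromosome 19 (plus strand, 6241668 to 6262335), whose 493 tested genes had a median log2 fold change of 0.29 in UN-SCC679 sh3 and, over 473 genes, 0.04 in LLC; the part of the chromosome in the change was not tested.

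Its relative Atg2b rose in LLC (0.40) and had a value of 0.04 in UN-SCC679. Atg9a rose in all 3 comparisons, with log2 fold changes of 0.24 in LLC, 0.11 in UN-SCC679 sh3 and 0.14 with OE. With OE it had 73.2, 73.6 and 74.7 CPM in OE libraries, against 63.8, 67.2 and 69.5 CPM in empty pLENTI6 libraries, without overlap (log2 fold change 0.14, SE 0.035, edgeR adjusted p = 0.0118). The call was lost without the third OE library (adjusted p 0.00503 to 0.0536 over 13 alternatives). Atg9a, Rb1cc1, Atg4b and Atg16l1 lie on chromosome 1, as does Dstyk. That chromosome's tested genes had median log2 fold changes of 0.142 in LLC, -0.045 in UN-SCC679 sh3 and 0.094 with OE. The part of the chromosome in the changes of these members was not tested.

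The lipidation enzymes ATG7 and ATG3 hand ATG8 proteins on, and ATG10 joins ATG12 to ATG5, which with ATG16L1 forms the ligase. In LLC 2 of these 6 genes rose and 1 fell, where 36.2% of all genes rose and 36.4% fell. In UN-SCC679 sh3 1 rose and 2 fell, where 31.8% and 32.0% of all genes did. Atg5 had 32.6, 33.6 and 34.9 CPM in LLC sh3 libraries, against 40.7, 42.3 and 39.4 CPM in LLC empty libraries (log2 fold change -0.28, SE 0.039, edgeR adjusted p = 2.78e-05). It fell in UN-SCC679 sh3 as well (-0.16), and the groups did not overlap in either line. Atg12 rose with sh3 in LLC (0.44) and in UN-SCC679 (0.15) and fell with OE. With OE it had 28.5, 28.0 and 29.7 CPM in OE libraries, against 34.1, 32.4 and 33.5 CPM in empty pLENTI6 libraries (log2 fold change -0.21, SE 0.039, edgeR adjusted p = 0.00294), every OE library below every empty one. That fall was not called with limma on log2(TPM + 1) (adjusted p 0.00112 to 0.0503 over 13 alternatives).

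Atg16l1 had 34.9, 34.3 and 35.6 CPM in LLC sh3 libraries, against 30.5, 34.4 and 31.0 CPM in LLC empty libraries (log2 fold change 0.13, SE 0.046, edgeR adjusted p = 0.021), with the second empty library inside the sh3 range. It had 26.3, 25.7 and 27.4 CPM in UN-SCC679 sh3 libraries, against 31.4, 33.0 and 30.1 CPM in empty TPLKO libraries (log2 fold change -0.25, SE 0.046, edgeR adjusted p = 0.000435), without overlap. Atg10 was among the lowest members and had 4.40, 4.69 and 4.81 CPM in OE libraries, against 2.90, 4.08 and 3.75 CPM in empty pLENTI6 libraries (log2 fold change 0.37, SE 0.12, edgeR adjusted p = 0.0441). The OE libraries lay above the empty ones, but 7 of 13 alternatives gave no call, 5 of them without a single library (adjusted p 0.0222 to 0.13). Atg3 and Atg7 were not called in any of the 3 comparisons; their log2 fold changes lay between -0.08 and 0.11.

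Letters known from the control of lysosome and autophagy genes were looked for on both strands of the RefSeq promoter windows (GRCm38.p6), which run from 250 bases before to 50 after a gene's start and matched 33 of the 40 genes. The E-box CACGTG is the core of the CLEAR element that TFEB and its relatives bind. It was in 5 of the 38 windows of the matched genes (Atg14, Atg3, Atg5, Atg7 and Rubcn) and in 7.15% of all 32851 windows. The longer CLEAR core TCACGTGA, which contains the E-box, was in that of Atg3 alone and in 0.974% of all. The FOXO letters GTAAACA and the AP-1 letters TGANTCA were in 0 member windows, beside 3.65% and 7.81% of all. The antioxidant response letters TGACNNNGC were in 4 (Atg13, Map1lc3b, Tax1bp1 and Ulk2), beside 12.4% of all. Becn1, Rb1cc1, Pik3c3, Atg12, Atg16l1, Map1lc3a and Epg5 had no window in the table. The E-box genes did not move as a set: with sh3, Atg5 fell in both lines, Rubcn fell in UN-SCC679 and was not called in LLC, and Atg3, Atg7 and Atg14 gave no call. The matches near Atg3 (chr16:45158737-45158784, plus strand, motif from position -72), Atg5 (chr10:44268305-44268338, plus strand, from -14) and Rubcn (chr16:32868429-32868474, minus strand, from -88) are shown with their flanks, since these genes span the responses; capitals mark the motif, and positions count from the RefSeq start.
Atg3: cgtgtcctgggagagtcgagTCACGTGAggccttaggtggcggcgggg
Atg5: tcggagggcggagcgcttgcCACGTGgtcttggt
Rubcn: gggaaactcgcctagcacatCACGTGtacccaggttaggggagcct

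ATG4 proteases trim ATG8 proteins and free them from lipid. In LLC 1 of the 4 genes rose and 2 fell, where 36.2% of all genes rose and 36.4% fell. Their log2 fold changes were -0.18 for Atg4b, 0.24 for Atg4c, -0.16 for Atg4d and -0.09 for Atg4a, the last not called. In UN-SCC679 sh3 none rose and 2 fell, where 31.8% of all genes rose and 32.0% fell. Atg4a had 8.19, 8.22 and 8.97 CPM in UN-SCC679 sh3 libraries, against 10.3, 10.2 and 10.3 CPM in empty TPLKO libraries (log2 fold change -0.28, SE 0.07, edgeR adjusted p = 0.00396), without overlap. Atg4d fell there too (-0.15). With OE, Atg4b rose (0.12) and the other 3 gave no call.

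Of the 5 ATG8 genes, 2 were higher in LLC, 1 was lower and 2 were not called, where 36.2% of all genes rose and 36.4% fell. Gabarapl1 had 119, 121 and 121 CPM in LLC sh3 libraries, against 49.1, 46.6 and 49.0 CPM in LLC empty libraries (log2 fold change 1.32, SE 0.027, edgeR adjusted p = 4.34e-13). Map1lc3a rose as well, with 14.7, 15.5 and 15.4 CPM in LLC sh3 libraries, against 8.98, 9.17 and 9.08 CPM in LLC empty libraries (log2 fold change 0.75, SE 0.06, edgeR adjusted p = 1.22e-07). Map1lc3b, which codes for the LC3B of the usual autophagosome assay, had 79.9, 82.4 and 81.4 CPM in LLC sh3 libraries, against 99.4, 97.5 and 97.8 CPM in LLC empty libraries (log2 fold change -0.27, SE 0.024, edgeR adjusted p = 2.55e-07). Gabarapl1 and Map1lc3a were thus higher and Map1lc3b lower with sh3, each without overlap, and on log2(TPM + 1) the fall of Map1lc3b was -0.47. Gabarap and Gabarapl2 gave no call in LLC, with log2 fold changes of -0.05 and 0.06.

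In UN-SCC679 sh3 the largest change of the family was in Gabarap, its most abundant gene. Gabarap had 183, 181 and 182 CPM in UN-SCC679 sh3 libraries, against 242, 244 and 248 CPM in empty TPLKO libraries (log2 fold change -0.43, SE 0.019, edgeR adjusted p = 3.7e-09). Its place is chromosome 11, plus strand, 69991143 to 69994951. Gabarapl1 had 118, 118 and 114 CPM in UN-SCC679 sh3 libraries, against 100, 95.9 and 93.4 CPM in empty TPLKO libraries (log2 fold change 0.27, SE 0.03, edgeR adjusted p = 7.96e-06). So Gabarap fell and Gabarapl1 rose, without overlap. Map1lc3b fell by 0.19 on the log2 scale and Gabarapl2 by 0.13, beside a median of -0.19 for the 763 tested genes of their chromosome 8; the part of the chromosome was not tested. With OE none of the 5 passed the test, and their log2 fold changes lay between -0.09 and 0.01.

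Per transcript length, the 5 ATG8 genes summed to 462, 476 and 474 TPM in LLC sh3 libraries and 420, 409 and 423 TPM in LLC empty libraries. Gabarapl1 made up 27.2% ± 0.943 of that sum with sh3 and 12.5% ± 0.164 with the empty vector (SD, n = 3 each), Map1lc3b 16.5% ± 0.194 and 25.9% ± 0.932, and Gabarap 32.6% ± 0.383 and 37.7% ± 1.09. In UN-SCC679 the sum was 701 ± 3.63 TPM with sh3 and 822 ± 7.28 TPM with empty TPLKO, and the share of Gabarap was 47.9% ± 0.264 and 54.8% ± 1.04. With OE the sum was 712 ± 5.65 TPM and with empty pLENTI6 696 ± 8.70 TPM. The LLC family total was higher and the UN-SCC679 total lower with sh3 than with the empty vector, without overlap, and no test was run on these sums.

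**Figure D2:**
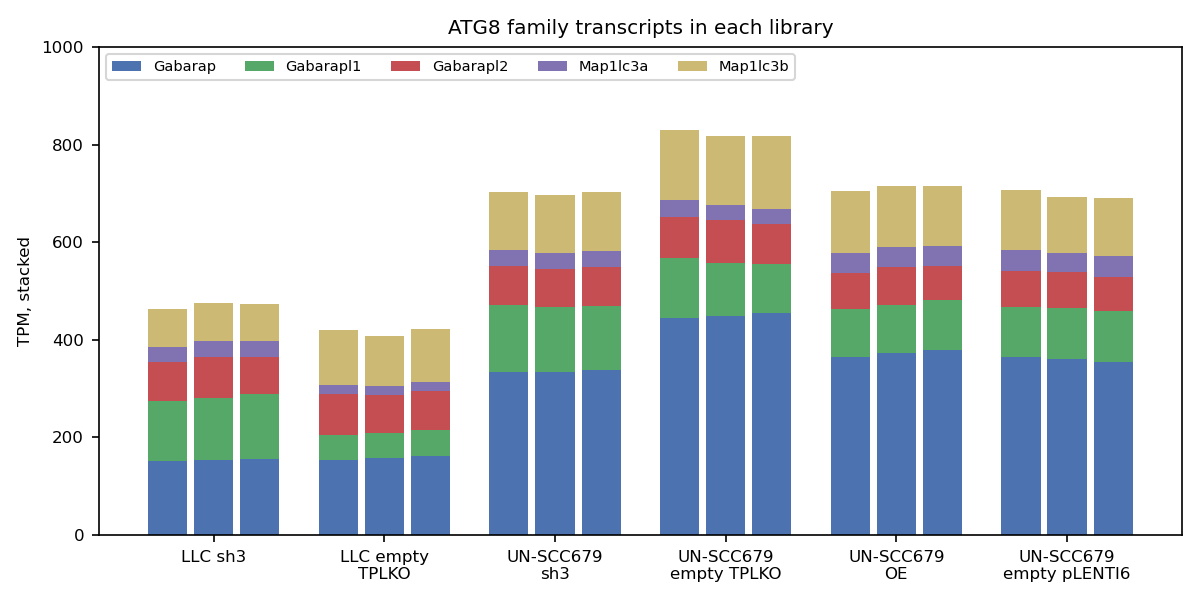
TPM of the 5 ATG8 genes stacked for each library (bars), in the order LLC sh3, LLC empty, UN-SCC679 sh3, UN-SCC679 empty TPLKO, OE and empty pLENTI6. The Gabarapl1 segment averages 128 TPM in LLC sh3 and 52.0 TPM in LLC empty libraries, and the Gabarap segment 336 TPM in UN-SCC679 sh3 and 450.3 TPM in empty TPLKO libraries.

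Of the 4 cargo receptor genes, 4 rose in LLC, where 36.2% of all genes did, and in UN-SCC679 sh3 3 rose and 1, Optn, fell, where 31.8% of all genes rose and 32.0% fell. The step was not tested as a group. Calcoco1, which in human cells is a receptor for turnover of the endoplasmic reticulum and Golgi, rose in both lines. It had 43.3, 43.3 and 44.4 CPM in LLC sh3 libraries, against 19.5, 20.6 and 21.7 CPM in LLC empty libraries (log2 fold change 1.08, SE 0.041, edgeR adjusted p = 9.24e-11). It had 27.6, 27.3 and 28.9 CPM in UN-SCC679 sh3 libraries, against 13.3, 13.7 and 13.8 CPM in empty TPLKO libraries (log2 fold change 1.04, SE 0.047, edgeR adjusted p = 3.82e-09). With DSTYK overexpression it had 15.6, 15.8 and 17.01 CPM in OE libraries, against 19.2, 20.3 and 20.3 CPM in empty pLENTI6 libraries (log2 fold change -0.30, SE 0.05, edgeR adjusted p = 0.00169). Calcoco1 thus rose with sh3 in both lines and fell with OE, with no overlap in any of the 3 comparisons, and all 13 alternatives of each kept the call. Its place is chromosome 15, minus strand, 102706777 to 102722178, and that chromosome's tested genes had median log2 fold changes of 0.02 in LLC, 0.02 in UN-SCC679 sh3 and -0.02 with OE. Even so, the empty populations of UN-SCC679 differed in it: empty TPLKO was below empty pLENTI6 (log2 difference -0.54, SE 0.05, edgeR adjusted p = 6.49e-06).

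The 250 bases before the RefSeq starts of Calcoco1 (chr15:102722179-102722428, minus strand, 57.6% G and C) and Gabarapl1 (chr6:129532942-129533191, plus strand, 46.8% G and C), the members that changed at least 2-fold, are shown on the strand of each gene. None of the 5 searched motifs was in them, so no base is in capitals.
Calcoco1: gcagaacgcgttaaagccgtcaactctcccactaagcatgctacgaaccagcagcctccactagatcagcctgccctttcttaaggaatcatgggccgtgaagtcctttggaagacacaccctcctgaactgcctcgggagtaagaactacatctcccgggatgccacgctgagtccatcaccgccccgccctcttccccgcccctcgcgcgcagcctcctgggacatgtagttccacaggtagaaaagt
Gabarapl1: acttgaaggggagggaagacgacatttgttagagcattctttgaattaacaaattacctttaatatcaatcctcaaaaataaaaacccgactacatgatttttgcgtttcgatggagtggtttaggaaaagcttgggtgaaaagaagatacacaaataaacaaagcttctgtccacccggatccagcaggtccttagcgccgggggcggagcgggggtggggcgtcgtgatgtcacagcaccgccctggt

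Optn codes for optineurin, a receptor for ubiquitin-marked cargo such as damaged mitochondria. In LLC it had 2.85, 2.95 and 3.53 CPM in LLC sh3 libraries, against 1.67, 1.73 and 1.27 CPM in LLC empty libraries (log2 fold change 0.998, SE 0.175, edgeR adjusted p = 0.000194). It had 6.87, 6.82 and 6.71 CPM in UN-SCC679 sh3 libraries, against 8.09, 7.80 and 8.19 CPM in empty TPLKO libraries (log2 fold change -0.24, SE 0.074, edgeR adjusted p = 0.0149). Optn rose in LLC and fell in UN-SCC679, without overlap; it was the member with the lowest TPM in LLC, and on log2(TPM + 1) its LLC change was 0.61. Nbr1, a receptor for ubiquitinated protein aggregates, rose in LLC (0.44) and in UN-SCC679 sh3 (0.26). Tax1bp1, another ubiquitin-binding receptor and the most abundant of the 4, rose slightly in both (0.09 and 0.05). With OE, Calcoco1 was the only receptor gene called.

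**Figure D3:**
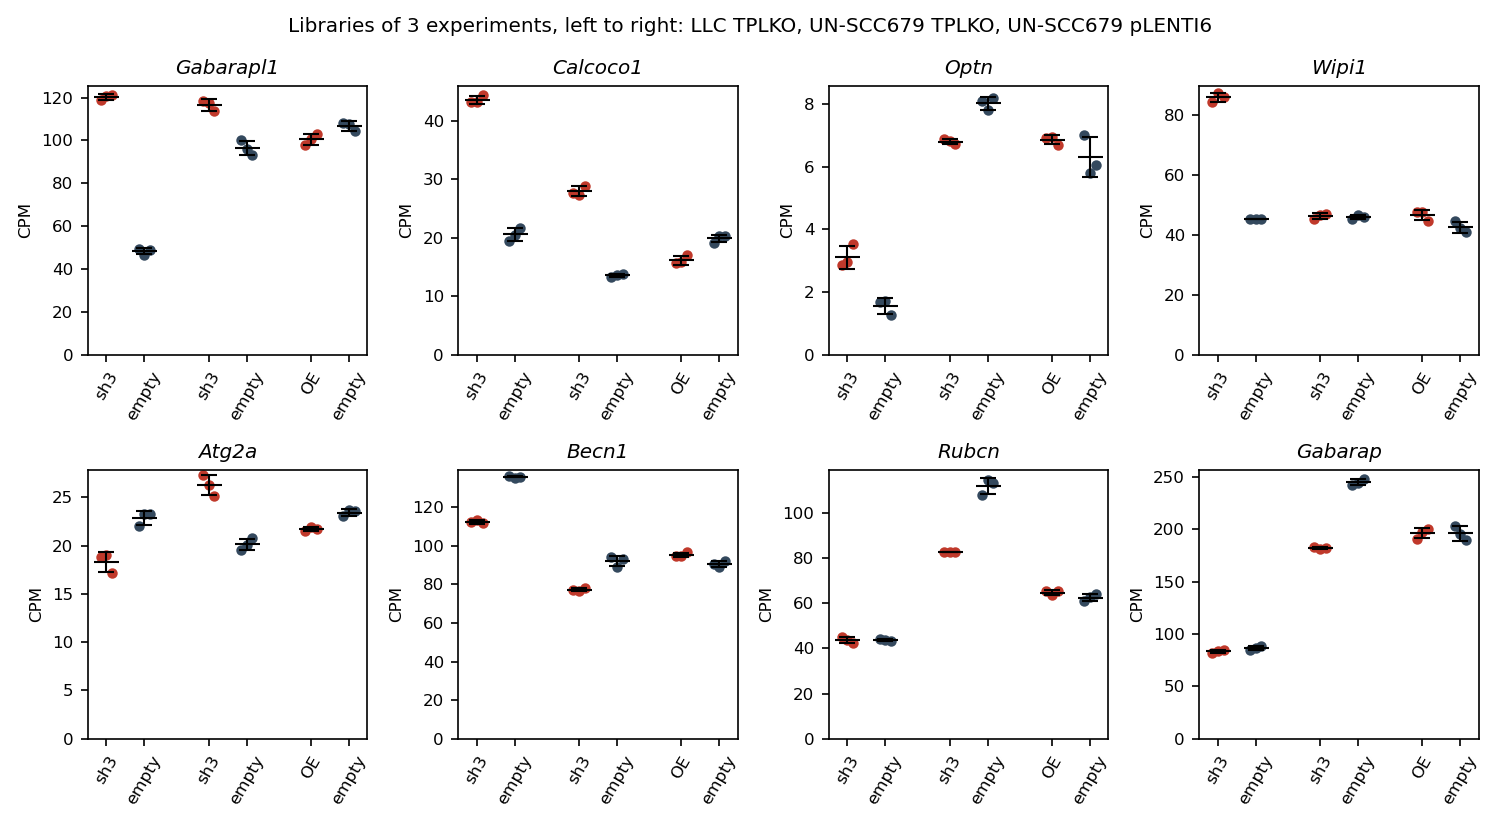
CPM in each library (points) with mean and SD (bars) for 8 autophagy genes; in each panel the groups run from LLC sh3 and empty through UN-SCC679 sh3 and empty TPLKO to OE and empty pLENTI6. Calcoco1 is higher with sh3 in both lines and lower with OE, while Gabarapl1 and Wipi1 separate widely in LLC and Gabarap and Rubcn in UN-SCC679 sh3.

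Fusion depends on the SNARE proteins STX17, SNAP29 and VAMP8 and the tether EPG5, and Rubicon (Rubcn) restrains it. Rubcn had 82.6, 82.6 and 82.5 CPM in UN-SCC679 sh3 libraries, against 108, 115 and 113 CPM in empty TPLKO libraries (log2 fold change -0.44, SE 0.028, edgeR adjusted p = 6.36e-08). In LLC it had 44.9, 43.6 and 42.5 CPM in LLC sh3 libraries, against 44.3, 43.8 and 43.2 CPM in LLC empty libraries, with overlap (log2 fold change -0.003, edgeR adjusted p = 0.941). The fall in UN-SCC679 was the largest of any member there. Epg5 had 15.7, 15.3 and 15.7 CPM in UN-SCC679 sh3 libraries, against 19.2, 19.98 and 18.4 CPM in empty TPLKO libraries (log2 fold change -0.30, SE 0.053, edgeR adjusted p = 0.000376), without overlap, and fell in LLC as well (-0.11). Rubcn and Epg5 were also the members in which the empty UN-SCC679 populations differed most: empty TPLKO was above empty pLENTI6 by a log2 difference of 0.85 for Rubcn and 0.83 for Epg5.

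Snap29 had 46.4, 47.8 and 46.4 CPM in LLC sh3 libraries, against 37.0, 35.3 and 37.7 CPM in LLC empty libraries (log2 fold change 0.35, SE 0.035, edgeR adjusted p = 9.19e-07). Snap29 had 28.7, 30.9 and 28.7 CPM in UN-SCC679 sh3 libraries, against 32.8, 32.8 and 30.6 CPM in empty TPLKO libraries, a fall with the second sh3 library inside the empty range (log2 fold change -0.12, SE 0.045, edgeR adjusted p = 0.0297). Stx17 rose in all 3 comparisons, with log2 fold changes of 0.13 in LLC and 0.11 in UN-SCC679 sh3. With OE it had 68.9, 72.4 and 68.6 CPM in OE libraries, against 59.4, 61.6 and 62.5 CPM in empty pLENTI6 libraries (log2 fold change 0.19, SE 0.033, edgeR adjusted p = 0.00201), without overlap. Vamp8 was not called with sh3 in either line; with OE it had 21.6, 22.6 and 21.9 CPM in OE libraries, against 20.9, 19.5 and 19.5 CPM in empty pLENTI6 libraries (log2 fold change 0.14, SE 0.046, edgeR adjusted p = 0.0456). Its OE libraries lay above the empty ones, but 8 of 13 alternatives gave no call (adjusted p 0.00778 to 0.174), among them those without the second or the third empty library and without any 1 of the OE libraries.

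The effect of sh3 was compared between the lines in a model of the 12 TPLKO libraries. It differed for 24 of the 40 genes, 17 higher and 7 lower in LLC relative to UN-SCC679, where 59.9% of all genes differed (28.1% higher and 31.9% lower). Genes called in both lines and in the same direction were Ulk1, Atg13, Atg9a, Atg12, Gabarapl1, Nbr1, Tax1bp1, Calcoco1 and Stx17, all 9 higher, and Becn1, Atg4d, Atg5, Map1lc3b and Epg5, all 5 lower. These made 22.5% and 12.5% of the members, beside 15.2% and 17.1% of the 12834 genes tested in both. Another 8 of 40, beside 20.8% of all genes, went opposite ways with the difference called: Ulk2, Uvrag, Ambra1, Atg2a, Atg16l1, Wipi2, Optn and Snap29. The shares of members with opposite calls and of all genes with them were close.

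Gabarapl1 rose in both lines, but by more in LLC (difference of log2 fold changes, LLC minus UN-SCC679, 1.04, SE 0.04, edgeR adjusted p = 1.83e-12). Optn had a difference of 1.23, SE 0.164, edgeR adjusted p = 6.08e-06. For Wipi1 it was 0.91, SE 0.04, edgeR adjusted p = 9.13e-12. Atg2a had the largest difference in the other direction (-0.71, SE 0.072, edgeR adjusted p = 2.83e-07). For Calcoco1 the difference was 0.04, SE 0.063, edgeR adjusted p = 0.624, so no difference between the lines was shown for it. Uvrag differed by counts (0.52, SE 0.058, edgeR adjusted p = 7.3e-07) but not on log2(TPM + 1), where the difference was 0.08 and the adjusted p 0.776, the highest of its 19 alternatives (lowest 5.68e-21). Further differences were 0.48 for Snap29, 0.38 for Atg16l1 and -0.30 for Wipi2, with adjusted p of 1.81e-06, 0.000146 and 1.48e-05 in edgeR.

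**Figure D4:**
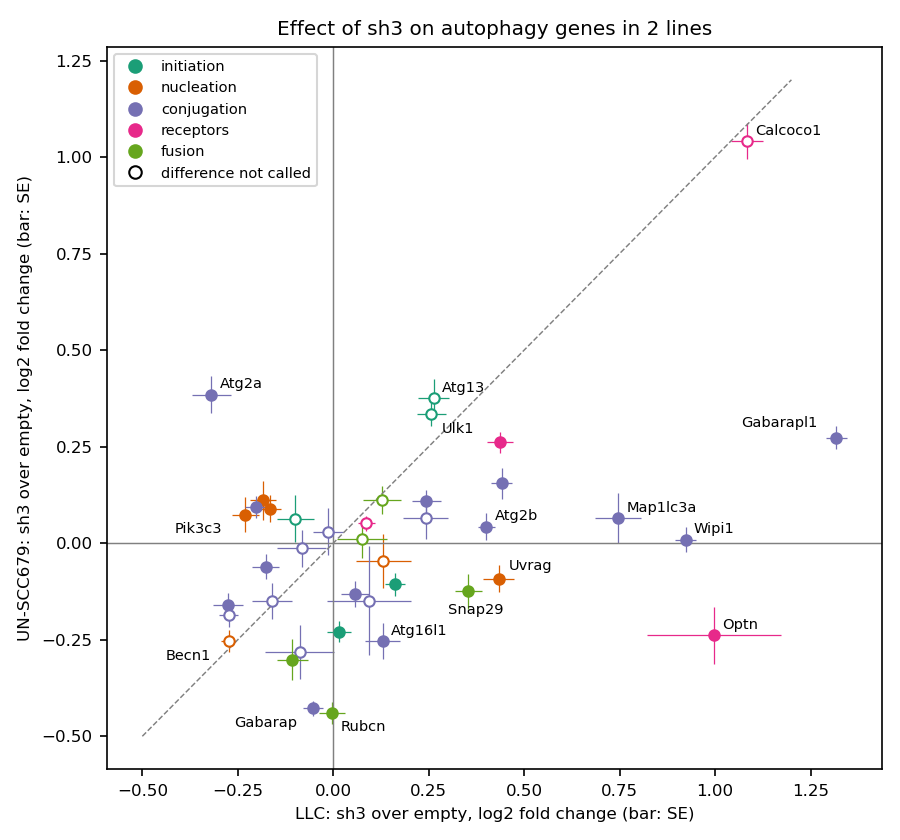
Log2 fold change of sh3 over empty in LLC (horizontal) and in UN-SCC679 (vertical) with standard errors, for 40 autophagy genes coloured by step; filled points have a called difference between the lines and the dashed line marks equal effects. Calcoco1 lies near the dashed line at 1.08 and 1.04, while Gabarapl1, Wipi1, Map1lc3a and Optn lie far to its right.

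The effects of sh3 and of OE in UN-SCC679 differed for 23 of the 40 genes (9 higher and 14 lower for sh3 minus OE, in a model of 12 libraries), where 51.9% of all genes differed (26.1% and 25.8%). Vector and doxycycline differ between these experiments along with DSTYK. The deposited counts also give the cells of the experiments different names, whose meaning is not stated. Such differences cannot be told apart. Genes called in opposite directions were Atg12, Wipi2 and Calcoco1, 3 of 40 higher with sh3 and lower with OE, beside 4.39% of 13430 genes tested in both. Rb1cc1 alone was lower with sh3 and higher with OE, beside 4.86% of genes. Ulk1, Atg9a and Stx17, also 3, rose in both, beside 6.91%, and 0 fell in both, beside 7.48%. Calcoco1 had the largest difference (sh3 effect minus OE effect 1.34, SE 0.064, edgeR adjusted p = 4.25e-10). At the other end stood Atg10 (-0.52), called with OE and not with sh3. Rubcn (-0.49), Epg5 (-0.45) and Gabarap (-0.43) also had negative differences, each from a fall with sh3 and no call with OE.

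Levels were compared per transcript length. The 40 genes summed to 1441 TPM in LLC sh3, 1372 TPM in LLC empty, 1646 TPM in UN-SCC679 sh3, 1788 TPM in empty TPLKO, 1616 TPM in OE and 1558 TPM in empty pLENTI6 libraries. Gabarap was the most abundant member in all 6 groups, with 154 ± 1.68 TPM in LLC sh3, 157 ± 3.91 TPM in LLC empty, 336 ± 2.66 TPM in UN-SCC679 sh3 and 450.3 ± 5.14 TPM in empty TPLKO libraries (SD, n = 3 each). In LLC empty libraries Becn1 stood next to it at 157 ± 5.88 TPM, within the spread of Gabarap. The kallisto estimates put most of the TPM of some members outside transcripts annotated as coding. In LLC empty libraries coding transcripts held 3.57% of the TPM of Becn1, 3.61% of Map1lc3a, 12.8% of Atg4d, 19.8% of Uvrag and 23.2% of Gabarapl2. They held 37.9% of the TPM of Atg4b, 40.2% of Atg10 and 46.5% of Ulk2. Levels and changes of these genes are therefore not those of coding RNA alone. The second place went to Gabarapl1 in both sh3 groups and to Map1lc3b in the empty TPLKO, OE and empty pLENTI6 groups of UN-SCC679. The lowest member was Optn in LLC, with 2.10 ± 0.382 TPM with sh3 and 1.03 ± 0.159 TPM with the empty vector, and Epg5 in all 4 UN-SCC679 groups.

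With empty TPLKO the lines themselves differed for 34 of the 40 genes, 16 higher and 18 lower in LLC than in UN-SCC679, where 82.9% of all genes differed (40.9% and 42.0%). The median size of the log2 difference was 0.55 over the members and 0.66 over all genes. By size alone 9 members differed at least 2-fold, where 35.3% of all genes did and were called as well. Optn (-2.37), Gabarap (-1.51), Stx17 (-1.47) and Rubcn (-1.36) were lowest in LLC relative to UN-SCC679, on the log2 CPM scale. Atg13 (1.04) was the only member at least 2-fold higher in LLC. Nucleation genes were higher in LLC in 5 of 6 cases, and 4 of 5 ATG8 genes were lower. Cell line, strain and history cannot be told apart here. The empty populations of UN-SCC679 differed for 26 members (14 higher and 12 lower in empty TPLKO than in empty pLENTI6), where 68.7% of all genes differed (33.3% and 35.4%). These populations differ in vector and doxycycline, and in the name the deposited counts give their cells. Whether their history differs too is not stated. Dstyk itself was higher in empty TPLKO than in empty pLENTI6 libraries, with means of 36.6 ± 0.974 CPM in empty TPLKO libraries and 30.5 ± 1.45 CPM in empty pLENTI6 libraries (SD, n = 3 each; log2 difference 0.26, SE 0.044, edgeR adjusted p = 0.000465), a gap close in size to the OE effect of 0.28. This comparison and those of sh3 and OE share their empty libraries.

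Some members changed in which transcript was counted. With a threshold of 10 points in the share of a gene's TPM and no overlap, 9 of the 39 members with several listed transcripts shifted in LLC, 2 in UN-SCC679 sh3 and 1 with OE, beside 15 between the empty UN-SCC679 populations. Of all tested genes with several listed transcripts, 18.7%, 10.2%, 4.81% and 42.3% passed the same threshold in these comparisons, beside 23.1%, 5.13%, 2.56% and 38.5% of these members. In LLC the transcript Uvrag-201 held 44.5%, 43.8% and 41.9% of the gene's TPM in sh3 libraries, against 19.8%, 22.1% and 17.4% in empty ones. Its counts are spread over an effective length of 5090 bases, and the rise in the gene's counts came with no higher TPM of the whole gene. The transcript is annotated as coding. Its own level was 14.7 ± 0.696 TPM with sh3 and 6.90 ± 0.466 TPM with the empty vector (SD, n = 3 each). Rb1cc1-202, a short transcript annotated as non-coding, held 26.5%, 27.2% and 25.5% with sh3, against 6.69%, 7.55% and 8.13%. The gene's CPM overlapped while its TPM was 36.0 ± 0.779 with sh3 and 28.5 ± 1.13 with the empty vector.

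Map1lc3b-202, annotated as a retained intron, held 18.7%, 18.5% and 19.2% in LLC sh3 libraries, against 7.75%, 9.09% and 7.70% in empty ones, so part of the counts of Map1lc3b lay outside its coding transcripts. Nbr1-208, annotated for nonsense-mediated decay, held 15.9% ± 2.83 with sh3 and 2.46% ± 2.95 with the empty vector (SD, n = 3 each). Gabarap-202, a coding transcript, held 42.0% ± 1.06 and 31.4% ± 1.11. Calcoco1-205, also coding, held 13.9% ± 5.44 and 1.76% ± 3.01, from means of 246 and 16 counts, so most of the rise of Calcoco1 lay in its other transcripts. In UN-SCC679, Atg7-201, a coding transcript of Atg7, held 97.0% ± 2.58 with sh3 and 81.2% ± 5.34 with empty TPLKO, while the gene's total was not called. With OE, the coding transcript Rubcn-202 held 11.95% ± 4.37 and with empty pLENTI6 1.92% ± 3.33. Transcripts of a gene share most of their reads, and these shares are the estimates of kallisto with no test.

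**Figure D5:**
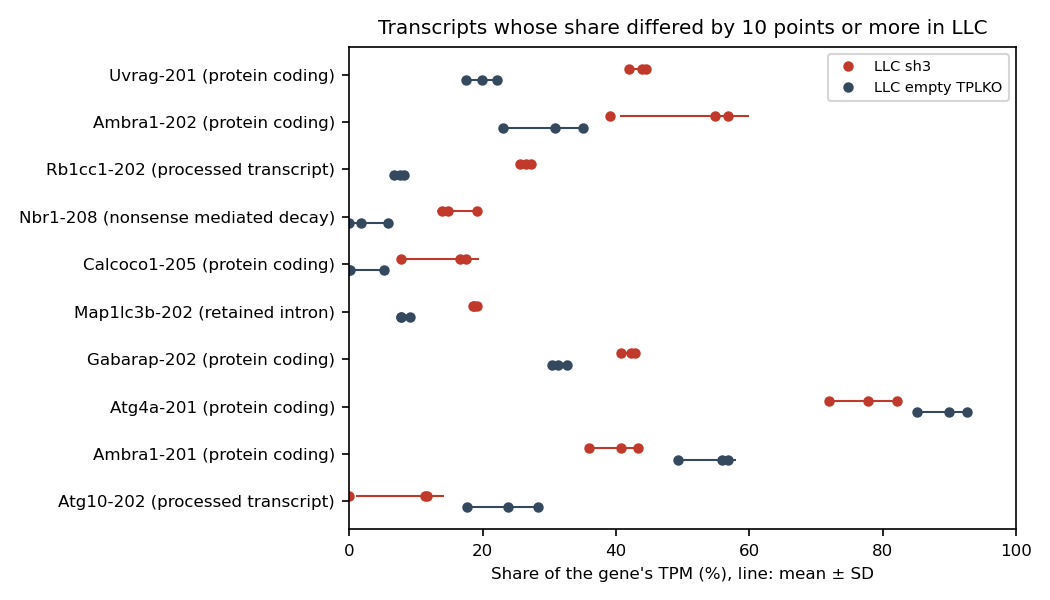
Share of each gene's TPM (horizontal axis, percent) held by the 10 transcripts that differed by at least 10 points without overlap in LLC; points are libraries and lines the mean and SD. The Uvrag-201 share is 43.4% in sh3 and 19.8% in empty libraries, and that of Map1lc3b-202 18.8% and 8.18%.

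A further 36 genes of the pathway, chosen by role, were read beside the 40. In LLC 13 of 34 tested rose and 14 fell, in UN-SCC679 sh3 9 of 36 rose and 14 fell, and with OE 8 of 36 rose and 9 fell. Over all tested genes 36.2% rose and 36.4% fell in LLC, 31.8% and 32.0% in UN-SCC679 sh3, and 14.6% and 15.2% with OE. In LLC the largest falls were those of Vps33a, a subunit of the HOPS tether, with 25.6, 25.5 and 24.8 CPM in LLC sh3 libraries, against 44.9, 44.3 and 46.9 CPM in LLC empty libraries (log2 fold change -0.84, SE 0.036, edgeR adjusted p = 2.59e-10), and of Prkag1, a regulatory subunit of AMP-activated kinase (-0.72). The largest rises were those of Atg16l2 (0.72) and Plekhm1, an adaptor between autophagosomes and lysosomes (0.41). Vps33a fell in UN-SCC679 sh3 too (-0.27) and rose with OE (0.16).

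In UN-SCC679 sh3 Trp53inp1, a p53-induced protein that binds ATG8 proteins, had 23.0, 23.3 and 23.6 CPM in UN-SCC679 sh3 libraries, against 6.83, 7.27 and 6.27 CPM in empty TPLKO libraries (log2 fold change 1.78, SE 0.065, edgeR adjusted p = 6.05e-10). Rubcnl, a relative of Rubicon, rose from low counts, with 2.90 ± 0.361 CPM in UN-SCC679 sh3 libraries and 1.16 ± 0.265 CPM in empty TPLKO libraries (SD, n = 3 each; log2 fold change 1.32, SE 0.206, edgeR adjusted p = 0.000149). The largest falls were those of Retreg1 (FAM134B), a receptor for turnover of the endoplasmic reticulum (-0.68), and Tollip (-0.52). With OE the catalytic AMP-activated kinase genes went opposite ways: Prkaa1 had 186, 182 and 181 CPM in OE libraries, against 144, 151 and 156 CPM in empty pLENTI6 libraries (log2 fold change 0.28, SE 0.032, edgeR adjusted p = 0.00017). Prkaa2, close to silent with OE, had 0.136, 0.167 and 0.0719 CPM in OE libraries, against 2.22, 2.28 and 2.23 CPM in empty pLENTI6 libraries (log2 fold change -4.13, SE 0.241, edgeR adjusted p = 2.56e-06), a change of -0.53 on log2(TPM + 1). Atg9b, a relative of Atg9a, also fell with OE, with 1.51 ± 0.0517 CPM in OE libraries and 2.66 ± 0.365 CPM in empty pLENTI6 libraries (SD, n = 3 each; log2 fold change -0.82, SE 0.139, edgeR adjusted p = 0.00194), a call lost with limma on log2(TPM + 1) (adjusted p up to 0.0594 over 13 alternatives). Rubcnl rose with OE too (0.76). Retreg1 and Trp53inp1 moved with OE against their direction with sh3, by 0.27 and -0.47 on the log2 scale.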

How the data were processed

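Messenger RNA of 18 libraries was measured. Per the labels' protocols the kit was stranded and reads had 75 bases; both single-end and paired-end runs are named, without saying which applies to a library. The submitters' processing notes list kallisto, sleuth and build mm10; versions are not given in the sources used here. What the authors deposited are kallisto's estimated counts for each transcript, not normalized, beside effective transcript lengths. kallisto divides reads among transcripts they fit equally well, so reads can pass between close relatives such as the ATG8 genes; this was not tested.

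Transcripts were matched to GENCODE M21 (GRCm38): 116816 of 118489 matched, and the other 1673 held between 0.515% and 0.593% of a library's counts and were left out. The estimated counts of a gene's transcripts were added and then rounded. TPM was computed from counts and effective lengths. Tests used R 4.3.3 and edgeR 4.0.16: TMM scaling, edgeR's default filter (minimum count 10, total 15), quasi-likelihood test and Benjamini-Hochberg adjustment over all tested genes, called at an adjusted p under 0.05. Each altered group was compared with its own empty group (6 libraries), and effects were compared as interactions (12 libraries). CPM are counts scaled to a common library total after TMM; log2 fold changes are from the edgeR fit and their SE from its F statistic. The fits were tested on simulated data first. Alternatives were DESeq2 1.42.0, its size factors in edgeR, library size alone, no filter, 1 CPM in 3 libraries, limma 3.58.1 on log2(TPM + 1), a term for the replicate number and leaving out each library.

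The members and lists were chosen with earlier results of these data known. The rule for values by library took, per comparison, up to 4 called members that rose most and up to 4 that fell most, without overlap, the member of each step with the smallest adjusted p, and 6 members with opposite calls in the lines and the largest difference. From the other genes of the pathway it took the 2 largest rises and falls; other values were chosen after they were seen. Promoter windows are from RefSeq (GRCm38.p6), and the motif letters were chosen with results known.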

Additional observations from a re-analysis of the deposited data

Results flagged for a closer look

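A test of the difference between lines drew attention to these genes: the effect of sh3 in LLC minus that in UN-SCC679, in log2 units, passed an adjusted p under 0.05 in the edgeR interaction model for 24 autophagy genes, where 59.9% of all genes passed. Among initiation genes the difference was 0.26 for Ulk2 and 0.24 for Rb1cc1. Among nucleation genes it was -0.31 for Pik3c3, -0.30 for Pik3r4, 0.52 for Uvrag and -0.26 for Ambra1. For membrane supply and PI3P effectors it was -0.71 for Atg2a, 0.35 for Atg2b, 0.13 for Atg9a, 0.91 for Wipi1 and -0.30 for Wipi2. For lipidation and ATG4 genes it was -0.12 for Atg4b, -0.12 for Atg5, 0.28 for Atg12 and 0.38 for Atg16l1. For ATG8 genes it was 0.68 for Map1lc3a, 0.37 for Gabarap, 1.04 for Gabarapl1 and 0.18 for Gabarapl2. For receptors it was 0.17 for Nbr1 and 1.23 for Optn, and for fusion genes 0.48 for Snap29, 0.19 for Epg5 and 0.43 for Rubcn.

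Of the 36 other genes of the pathway, the difference was called higher for 15 and lower for 15. Across all genes 28.1% were called higher and 31.9% lower. Among those named in the report, which were picked for large changes, 10 had such a difference. It was -0.61 for Prkaa1, -0.86 for Prkag1, 0.67 for Atg16l2, -0.80 for Atg9b, -1.74 for Trp53inp1 and 0.62 for Tollip. It was 0.45 for Retreg1, -0.57 for Vps33a, 0.64 for Plekhm1 and -2.82 for Rubcnl, whose counts in LLC were too low for a test within that line.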

How the results depend on the processing

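Counts of called members kept within 1.5 times their main value under most alternatives: 131 of 142 values did. The members' median log2 fold changes were less stable. Of these, 18 values stayed within 1 SD of the medians of the altered libraries, and 12 did not. They ran from 0.068 to 0.111 in LLC, from -0.01 to 0.07 in UN-SCC679 sh3 and from 0.016 to 0.037 with OE. With limma on log2(TPM + 1), 7 members fell in LLC, 6 rose in UN-SCC679 sh3 and 1 fell with OE. With library size alone 9 fell in UN-SCC679 sh3, and with DESeq2 3 rose with OE. Leaving out 1 library gave 2 to 11 rises and 3 to 6 falls with OE, 16 to 19 and 9 to 12 in LLC, and 8 to 11 and 13 to 14 in UN-SCC679 sh3. The cause was not tested. Of 46 results on single named genes, 36 kept their call and direction under each alternative, and 10 lost or gained a call; none changed sign. Samples share only a replicate number: deviations of same-numbered libraries correlated at 0.079 or less in the compared groups, and libraries did not each correlate best with their own number. With the replicate block, 18 members rose and 11 fell in LLC, 10 and 14 in UN-SCC679 sh3, and 6 and 3 with OE; Vamp8 was not called. No scaling moved the median of all genes by over 0.1. Optn, Atg10 and Atg4a have the fewest counts, and their errors are the widest.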
